A study of Mus musculus with 18 samples.

Results

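A block of 10 neighbouring genes on mouse chromosome 8 was described in 18 mammary tumors. The genes are Tubgcp3, Atp11a, Mcf2l, Pcid2, Cul4a, Lamp1, Grtp1, Dcun1d2, Tmco3 and Tfdp1, 10 of the 57126 genes of the count table and 10 of the 17 protein-coding genes of a 900 kb window of chromosome 8 (GRCm39), which runs from Spaca7 to Grk1. They were chosen by their level in each tumor divided by the median over the 18 tumors, a value called the ratio from here on. Levels are in CPM, each gene's share of the library's counts on the usual scale, with library sizes from the trimmed mean of M values (TMM). All 10 genes were highest in the same tumor, YZ4, at 13.6 to 23.4 times their 18-tumor median. Those values chose the genes, so they are given as a description, without a test.

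The 10 genes do different jobs and share an address. Cul4a encodes the scaffold of CRL4, a family of ubiquitin ligases in which the adaptor DDB1 and exchangeable receptors choose proteins for degradation, among them the replication licensing factor CDT1. Cullins are switched on when the small protein NEDD8 is attached to them, and Dcun1d2 encodes one of the factors that help this attachment. Tfdp1 encodes DP1, the partner with which E2F proteins bind DNA and switch on genes of the S phase. Lamp1 encodes one of the most abundant proteins of the lysosomal membrane. Tubgcp3 encodes a core subunit of the gamma-tubulin ring complex, which seeds microtubules, and Atp11a encodes a flippase that moves phosphatidylserine to the inner leaflet of the plasma membrane. Pcid2 encodes a subunit of TREX-2, a complex of messenger RNA export. Mcf2l encodes a guanine nucleotide exchange factor for small GTPases and Grtp1 a protein with a TBC domain, a fold found in proteins that act on Rab GTPases. Tmco3 encodes a membrane protein related to ion exchangers.

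The 18 tumors came from female mice of a cross of BALB/c with C57BL6/J. In every mouse, intraductal injection of an adenovirus with Cre recombinase (Ad-Cre) into the mammary gland of young adults removed the wild-type Trp53 from epithelial cells, while stroma and immune cells kept it. This left Trp53 R172H over a null allele in 7 tumors (MaP R172H/-), Trp53 R245W over a null allele in 5 (MaP R245W/-) and no Trp53 in 6 (MaP -/-), and tumors were taken when the mice reached tumor burden. Tumors are named as in the labels, which give JM779-T1 and JM836-T1 where the study's list of sequenced tumors has the second tumor of those mice, so which tumor of each of these 2 mice was sequenced is uncertain. Mice JM663 and JM833 each gave 2 of the MaP -/- tumors, which makes 4 mice in that group, and 3 MaP R172H/- tumors and 3 MaP R245W/- tumors also carried Rosa26LSL-TdTomato/+, a reporter that Cre switches on. YZ4 was a MaP R172H/- tumor without the reporter, and the only one of its mouse that was sequenced. The MaP R172H/- libraries were sequenced on another instrument (HiSeq 4000) than all other libraries (NovaSeq 6000), so instrument and genotype cannot be told apart in any comparison of that group. The same holds for tumor subtype. The study lists the MaP R172H/- tumors as nonmetaplastic adenocarcinomas, luminal B (YZ4 among them) or HER2-enriched. It lists all other tumors as triple-negative, most of them metaplastic. Total counts ran from 23113578 to 37365062 per tumor. Trp53 itself had a median of 45.7 CPM in MaP R172H/-, 27.0 CPM in MaP R245W/- and 12.2 CPM in MaP -/- tumors, and YZ4 had 47.4 CPM, inside the range of its group.

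The block spans 764 kb from the start of Tubgcp3 to the end of Tfdp1. In chromosomal order, Tubgcp3 (12664275 to 12722248, minus strand), Atp11a (12807003 to 12918729, plus strand) and Mcf2l (12923794 to 13070905, plus strand) come first. The coagulation genes F7, F10 and Proz follow, and then Pcid2 (13127182 to 13155605, minus strand) and Cul4a (13155619 to 13197950, plus strand), which point away from each other. Lamp1 (13209121 to 13227360, plus strand) and Grtp1 (13222022 to 13250627, minus strand) share 5339 bases on opposite strands, and Dcun1d2 (13305961 to 13338142, minus strand) and Tmco3 (13337568 to 13372938, plus strand) share 575. Tfdp1 (13388555 to 13428448, plus strand) is the last. The kit kept the strand of the RNA, but the strand setting of the counting is not given in the sources used here, so the values of overlapping genes, Grtp1 beside the far more abundant Lamp1 above all, are uncertain to that extent.

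The sequences before the starts of 6 genes of the window are shown because F7 and F10 stayed low in YZ4 while Proz, Atp11a, Lamp1 and Tfdp1 were high in it. Each holds the 150 bases of GRCm39 before the first annotated base of the gene, on the plus strand, with capitals marking 3 motifs on either strand. These are the GC box, which reads GGGCGG, the CCAAT box, named by its letters, and the E-box, searched for in its form CACGTG. They are Atp11a at chr8:12806853-12807002, Lamp1 at chr8:13208971-13209120, Tfdp1 at chr8:13388405-13388554, F7 at chr8:13075852-13076001, F10 at chr8:13087143-13087292 and Proz at chr8:13110426-13110575.
Atp11a: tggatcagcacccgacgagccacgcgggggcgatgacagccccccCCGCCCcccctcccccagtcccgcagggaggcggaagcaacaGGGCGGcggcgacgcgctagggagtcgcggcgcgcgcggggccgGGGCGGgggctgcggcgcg
Lamp1: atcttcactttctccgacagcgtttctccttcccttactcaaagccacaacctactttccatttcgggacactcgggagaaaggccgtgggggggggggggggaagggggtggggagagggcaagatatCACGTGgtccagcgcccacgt
Tfdp1: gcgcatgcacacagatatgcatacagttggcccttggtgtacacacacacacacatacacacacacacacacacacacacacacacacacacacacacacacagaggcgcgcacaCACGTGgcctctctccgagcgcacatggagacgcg
F7: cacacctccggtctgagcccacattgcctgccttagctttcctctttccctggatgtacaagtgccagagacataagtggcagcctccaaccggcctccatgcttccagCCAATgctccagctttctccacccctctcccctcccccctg
F10: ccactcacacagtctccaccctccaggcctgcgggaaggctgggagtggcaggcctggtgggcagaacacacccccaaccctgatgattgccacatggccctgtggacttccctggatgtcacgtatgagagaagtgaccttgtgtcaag
Proz: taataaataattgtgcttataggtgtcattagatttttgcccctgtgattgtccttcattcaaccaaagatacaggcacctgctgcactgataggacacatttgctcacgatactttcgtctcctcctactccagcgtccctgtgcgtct
The run before Atp11a holds 3 GC boxes and 24 CG dinucleotides, and those before Lamp1 and Tfdp1 hold 1 E-box and 8 CG each. The run before F7 holds 1 CCAAT box and 2 CG, that before F10 holds none of the 3 motifs and 2 CG, and that before Proz none and 4 CG.

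For all 10 genes the RefSeq promoter table (GRCm38.p6), which takes 250 bases before to 50 after each start, had at least 1 window, 17 in all, and each was found once in GRCm39. These windows are not the same stretches as the printed runs. The window of Proz does not overlap its printed run, and those of Tfdp1 overlap theirs only in part. Over the table's 32851 windows the median number of CG dinucleotides was 7. The 17 windows had between 3 (Mcf2l) and 56 (Tfdp1), with 43 for Cul4a and 19 for Lamp1, against 5 for F7, 5 for F10 and 8 for Proz. A GC box stood in 11 of the 17 windows and in 35.7% of all windows. The CCAAT box went the other way, in 2 of 17 and in 37.4% of all windows. So did the TATA box (TATAAA), in 0 of 17 and in 13.6% of all windows. An ETS-type motif (CCGGAAG) stood in 2 of 17 and in 8.86% of all windows. An E-box stood in 2 of 17, Lamp1 with 4 copies and Tfdp1 with 1, and in 7.15% of all windows. An E2F-type motif (the letters TTCCCGC, or else TTCGCGC, or else TTGCCGC, or else TTGGCGC, on either strand) stood in 8 of 17 and in 9.57% of all windows. Windows of 1 gene can overlap, and so do those of Pcid2 and Cul4a and those of Dcun1d2 and Tmco3. A motif can thus be counted in more than 1 window. By gene, the E2F-type motif stood in 6 of the 10. It also stood in the window of F10, which held a CCAAT box as well. The window of Proz, high in YZ4, thus had a number of CG near the median of all windows, as did those of F7 and F10, which were not high. These matches are letters in a window and say nothing of whether a factor was bound.

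The ubiquitin ligase genes of the block stood far above the other tumors in YZ4. Cul4a had 2656 CPM in YZ4 and between 97.2 and 169.5 CPM in the other 6 MaP R172H/- tumors. In the MaP R245W/- tumors it had 157.5 CPM in JM1233, 227 in JM1564, 167 in RM0014, 162 in JM1126 and 168 in JM1133, and in the MaP -/- tumors it ran from 127 to 208 CPM with a median of 158. YZ4 was thus 11.7 times the next tumor, and no other tumor left the range of 0.609 to 1.42 times the median. Dcun1d2 had 725 CPM in YZ4 and 22.9 to 38.5 CPM in the other 17 tumors, a ratio of 22.2 and a gap of 18.8 times to the next tumor, YZ3. That gap was the widest of the 10 genes.

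Tfdp1 had 1931 CPM in YZ4 and 70.3 to 127 CPM in the other MaP R172H/- tumors. In the MaP R245W/- tumors it had 140 CPM in JM1233, 209 in JM1564, 155 in RM0014, 136 in JM1126 and 124 in JM1133. The MaP -/- tumors ran from 70.1 to 235.5 CPM with a median of 136, and the highest of them, JM779-T1, was the second of all tumors at a ratio of 1.82. The ratio in YZ4 was 15.0, so the gap to the next tumor was 8.20 times, narrower than that of Cul4a.

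Lamp1, the most abundant of the 10 genes, had 10287 CPM in YZ4 and 266 to 584 CPM in the other MaP R172H/- tumors. In the MaP R245W/- tumors it had 708 CPM in JM1233, 434 in JM1564, 456 in RM0014, 712 in JM1126 and 485 in JM1133. The MaP -/- tumors ran from 331 to 705 CPM with a median of 439.7. Per kilobase of exon, which allows genes to be compared, Lamp1 had a median rank of 228 of 16393 genes over the other 17 tumors and rank 6 in YZ4. On the same scale Atp11a stood at rank 22 in YZ4 (922 elsewhere), Cul4a at 33 (1317) and Tfdp1 at 44 (1419), while Grtp1, the lowest, stood at 1078 (11395). The 10 genes took 3.06% of all counts of YZ4 and between 0.0699% and 0.182% of those of the other tumors.

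Atp11a had the highest ratio, 23.4, with 9272 CPM in YZ4 and 733 CPM in the next tumor, YZ3. It also had the lowest ratio of any of the 10 genes in any tumor, 0.188, at 74.4 CPM in YZ7, another MaP R172H/- tumor. Tmco3 reached 1076 CPM and a ratio of 23.1, and outside YZ4 it kept between 30.0 and 68.2 CPM. Tubgcp3 reached 1165 CPM, a ratio of 13.6, the lowest of the 10, and was between 65.5 and 111 CPM elsewhere. Pcid2 reached 408 CPM (ratio 15.5) against 21.1 to 39.2 CPM elsewhere.

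The exchange factor gene Mcf2l varied the most between the other tumors, and the TBC domain gene Grtp1 was the least abundant of the 10. Mcf2l had 575 CPM in YZ4, a ratio of 15.1, but 157 CPM in JM1564 and 13.7 CPM in JM779-T1, so YZ4 stood only 3.66 times above the next tumor. Grtp1 had 121 CPM in YZ4, a ratio of 14.1, and 17.3 CPM in the next tumor, JM833-T2. Its lowest count in a tumor was 109 and its count in YZ4 was 3655, so counting error is small beside either gap.

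**Figure D1:**
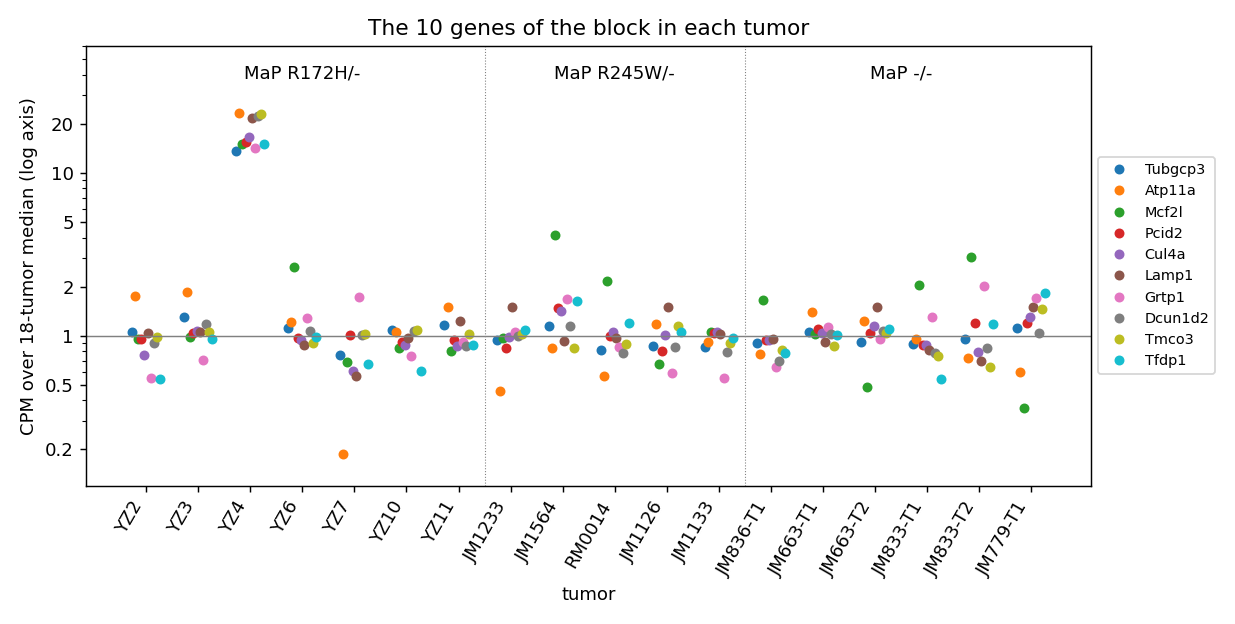
Each point is the level (CPM) of 1 gene in 1 tumor divided by its median over the 18 tumors, on a log axis, with tumors grouped by genotype and genes by color. The 10 points of YZ4 lie between 13.6 and 23.4, and the points of the other tumors scatter around 1, with Mcf2l in JM1564 at 4.12 the highest and Atp11a in YZ7 at 0.188 the lowest.

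Outside YZ4 the median of the block varied little. Over the other 17 tumors the median ratio of the 10 genes ran from 0.727 in YZ7 to 1.29 in JM1564. Of the 170 values of the 10 genes in those tumors, 6 were at least 2, of which 5 were of Mcf2l and 1 of Grtp1. The SD of the log2 ratio over the 17 tumors was lowest for Tubgcp3 (0.21), Pcid2 (0.21), Dcun1d2 (0.22), Tmco3 (0.26) and Cul4a (0.29), higher for Lamp1 (0.40), Tfdp1 (0.49) and Grtp1 (0.62), and highest for Atp11a (0.81) and Mcf2l (0.96). The log2 ratios in YZ4, between 3.76 and 4.55, were outside this spread for each gene. Tumors of 1 mouse differed little in their medians (1.03 and 1.06 in JM663, 0.873 and 0.895 in JM833).

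The other genes of the window divided. It holds 37 annotated genes, of which 17 are protein-coding, and of the 7 protein-coding genes outside the 10, 3 had a median of at least 1 CPM. Proz, which encodes protein Z, a plasma cofactor that limits coagulation, had 18.6 CPM in YZ4 (ratio 14.4) and at most 3.07 CPM in the other tumors. F7, which encodes coagulation factor VII, had 1.52 CPM in YZ4 (46 counts, ratio 1.33), and 5 tumors were above it, with 44.4 CPM in JM1126. F10, which encodes coagulation factor X, had 2.25 CPM in YZ4 (68 counts, ratio 0.905) and 62.1 CPM in JM1126. F7 and F10 lie between Mcf2l and Proz, so the 2 genes inside the block that had at least 1 CPM and were not high in YZ4 were flanked on both sides by genes at 14.4 to 15.1 times their median.

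The low genes of the window carried few counts. Adprhl1, known from the heart, had 63 counts in YZ4 against a median of 3.5, yet JM1233 was higher. Atp4b, a subunit of the stomach proton pump, had 49 counts in YZ4, and Grk1, a kinase of the retina, had 32, each the highest of 18 tumors. Spaca7, at the start of the window, had 1 count. Of 20 non-coding genes and pseudogenes, 5 had a median of at least 1 CPM (Gm15350, Gm15347, Gm17022, E330037G11Rik and 9530085L11Rik), and these were at 11.5 to 22.2 times their median in YZ4. All 5 overlap 1 or 2 of the 10 genes, and 9530085L11Rik and E330037G11Rik lie inside Dcun1d2 on its own strand. Among the non-coding genes below 1 CPM, 4931415C17Rik, which shares 77 bases with Tubgcp3 on the other strand, had 415 counts in YZ4 against a median of 4.5.

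**Figure D2:**
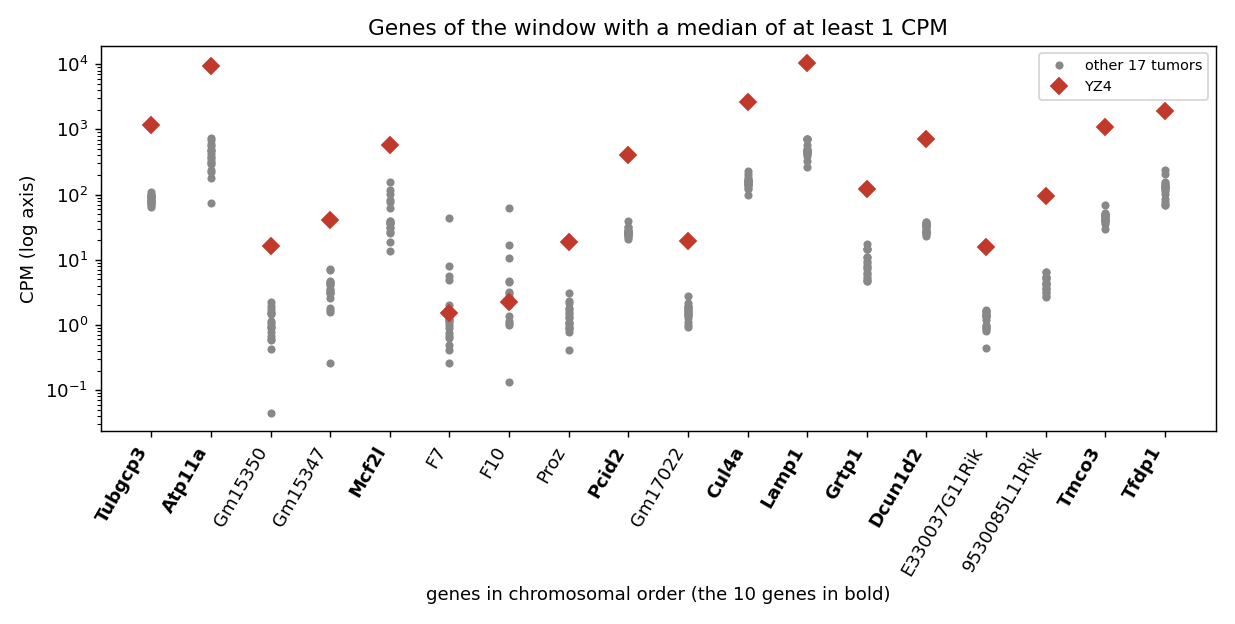
Each point is the level in CPM (log axis) of 1 gene in 1 tumor, for the 18 genes of the window with a median of at least 1 CPM in chromosomal order, with YZ4 as red diamonds and the other 17 tumors in grey. YZ4 lies above every other tumor in each gene except F7, at 1.52 CPM, and F10, at 2.25 CPM.

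The neighbors on both sides had lower ratios in YZ4 than the 10 genes. Before the block, the nearest gene with a median of at least 1 CPM is Arhgef7, another guanine nucleotide exchange factor, which ends 779 kb before Tubgcp3 and had a ratio of 1.29 in YZ4. In that gap, which is longer than the block, lies Sox1, a transcription factor of the nervous system, with 44 counts in YZ4 and at most 2 in any other tumor, so where the high values began was not located. Over the 10 nearest such genes before the window the ratio in YZ4 had a median of 1.68 and ran from 0.989 (Ing1) to 4.29 (Irs2). The collagen IV genes Col4a1 (2.45) and Col4a2 (2.21) were highest in YZ4 among the 18 tumors. After the block, Gas6, the ligand of the receptors Axl, Tyro3 and Mertk, starts 86.9 kb beyond Tfdp1 and had 406 CPM in YZ4, a ratio of 3.18, with JM833-T1 close behind at 383 CPM. Rasa3 followed at 2.29. Cdc16, a subunit of the anaphase-promoting complex, had 93.2 CPM, which is also its median. Over the 10 nearest genes the median was 1.31. The highest of these, Tdrp, had a ratio of 9.79 in YZ4, but 10.5 in JM833-T1.

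**Figure D3:**
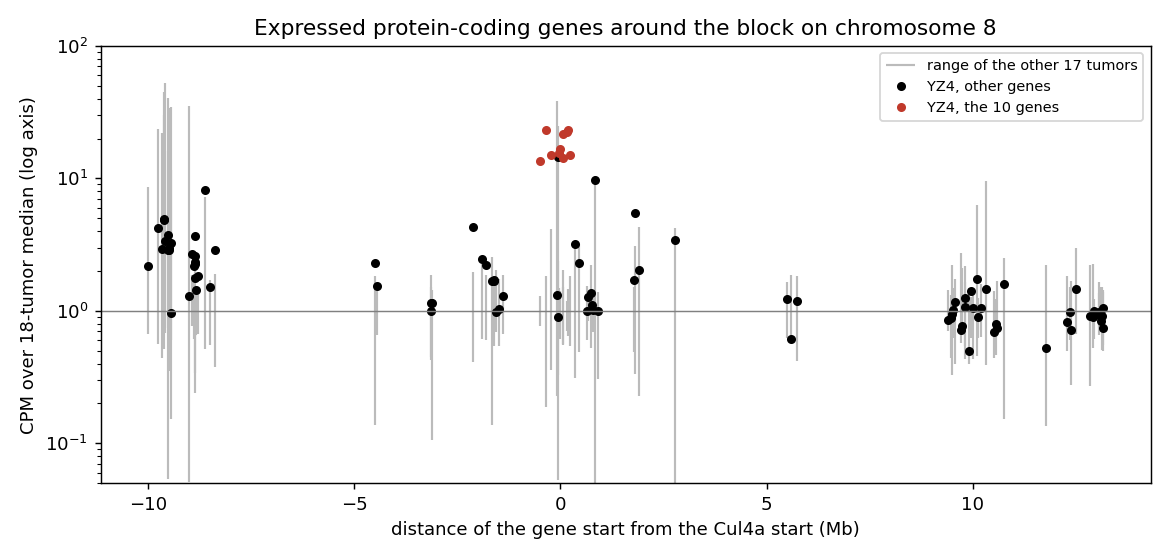
The level of each protein-coding gene with a median of at least 1 CPM in YZ4, divided by its 18-tumor median (log axis), is set against the distance in Mb of its start from that of Cul4a, with vertical lines for the range of the other 17 tumors (lines below 0.05 are cut off). The 10 genes, in red, lie between 13.6 and 23.4, and Gas6 and Arhgef7 on either side at 3.18 and 1.29.

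Farther along chromosome 8, YZ4 also departed from the other tumors. In the first 5 Mb, where 25 genes had at least 1 CPM, its median ratio was 2.86, and only YZ7 was higher, at 7.21. Insr, the insulin receptor gene, was at 2.17 in YZ4 and 8.61 in YZ7, and Arhgef18 at 4.26 and 23.6. Between 5 Mb and the window the median over 14 genes was 1.61 in YZ4 and at most 1.21 in any other tumor. From the window to 20 Mb it was 1.31 over 16 genes against at most 1.22, and from 20 to 35 Mb it was 0.980. Beyond 35 Mb, over 563 genes, it was 0.688, the lowest of the 18 tumors, the others lying between 0.780 and 1.27. Over all 16393 genes the median ratio in YZ4 was 0.979. DNA was not analysed here.

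Large ratios were not rare in single tumors. In YZ4, 105 of the 16393 genes with a median of at least 1 CPM were at 10 times the median or more (0.641%), and 16 of them lay in the window, the 10 genes included. The other tumors had between 5 and 179 such genes, with YZ7 the highest, and YZ4 was the fourth of 18. YZ4 was the highest of the 18 tumors for 624 of the genes (3.81%). Among the 2171 genes with a median of at least 100 CPM, 4 were at 10 times or more in YZ4, and these were Atp11a, Cul4a, Lamp1 and Tfdp1. Since the 10 genes were chosen by these values, nothing is read from their share.

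The genes whose levels followed the block over the 18 tumors were taken by Pearson's r between log2(CPM + 0.5) and the median of the 10 genes on that scale, as a description. The 3 highest lie in the window (9530085L11Rik at 0.94, E330037G11Rik at 0.93 and the pseudogene Gm17022 at 0.90). Timm44, a subunit of the mitochondrial import motor, and Map2k7, a kinase of the JNK pathway, both near 4.3 Mb of chromosome 8, followed at 0.87 and 0.80 with ratios of 2.32 and 2.26 in YZ4. Proz came in at 0.82. The other 4 lie on other chromosomes. They were Rps3a3 (0.82), Fam83e (0.81), Smim11 (0.81) and Stc2, which encodes the secreted glycoprotein stanniocalcin (0.79, ratio 19.9). These values rest on YZ4. Without it, r was 0.35 for 9530085L11Rik, 0.32 for Timm44, -0.02 for Proz and -0.36 for Rps3a3, and it stayed above 0.5 for Stc2 alone among the 10, at 0.65. The tumors share libraries between genes, and 2 pairs share a mouse.

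The comparisons of the genotypes ask whether the levels of tumors with mutant p53 differ from those of tumors without p53. They used the same tumors that chose the genes, so their p-values support nothing about the choice. Between MaP R172H/- and MaP -/- tumors, none of the 10 genes was called at a false discovery rate (FDR) below 0.05 by edgeR's quasi-likelihood test, in a comparison that called 8.4% of 20954 genes and 3.67% as higher in MaP R172H/- tumors. With an unadjusted p under 0.05, 5 of the 10 passed, against 24.7% of all genes. DESeq2 called 0, and 11.7% of the 29467 genes to which it gave an FDR. The fitted value of each of the 10 was positive, with a median of 1.62 on the log2 scale (0.00 over all genes tested). YZ4, whose values chose the genes, belongs to the MaP R172H/- group. The sign and size of these values thus follow in part from the choice and are given as a description. Dcun1d2 was at 2.19 ± 0.85 (SE, FDR = 0.130 by edgeR), Atp11a at 2.27 ± 0.90 (FDR = 0.137), Lamp1 at 1.92 ± 0.88 (FDR = 0.193), Cul4a at 1.65 ± 0.81 (FDR = 0.229) and Tfdp1 at 1.42 ± 0.82 (FDR = 0.307).

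These differences rested on YZ4. When it was left out, the median log2 fold change of the 10 genes was -0.14, and the values ran from -0.48 (Tfdp1) to 0.41 (Atp11a), with 4 above 0 and the lowest FDR at 0.302 by edgeR. Cul4a then stood at -0.27 and Lamp1 at -0.16. The group means show the same. Cul4a had 496 ± 953 CPM (SD, n = 7) with YZ4 and 136 ± 24.7 CPM (SD, n = 6) without it, against 162 ± 30.2 CPM (SD, n = 6) in MaP -/- tumors. Tfdp1 had 361 ± 693 CPM (SD, n = 7) with YZ4 and 99.6 ± 24.3 CPM (SD, n = 6) without it, against 138 ± 56.2 CPM (SD, n = 6). Leaving out any other tumor kept Cul4a between 1.58 and 1.83 and Tfdp1 between 1.28 and 1.65.

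The tools treated YZ4 differently. DESeq2 by default replaces a count that lies far from the others of its group in groups of 7 or more, the size of the MaP R172H/- group. It replaced counts for 10 of 10 genes in this comparison and gave a median log2 fold change of -0.10, with Cul4a at -0.21 and Tfdp1 at -0.42. Replacement was then turned off together with DESeq2's filter that withholds p-values from genes with outlying counts, a choice made after seeing the data. Both changes are meant wherever DESeq2 without replacement is named below. With both off, the median was 1.62 and DESeq2 called 3 of the 10 genes, and 11.9% of 30817 genes. The 3 were Atp11a (2.26, FDR = 0.0416), Dcun1d2 (2.18, FDR = 0.0412) and Tmco3 (2.18, FDR = 0.0465).

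**Figure D4:**
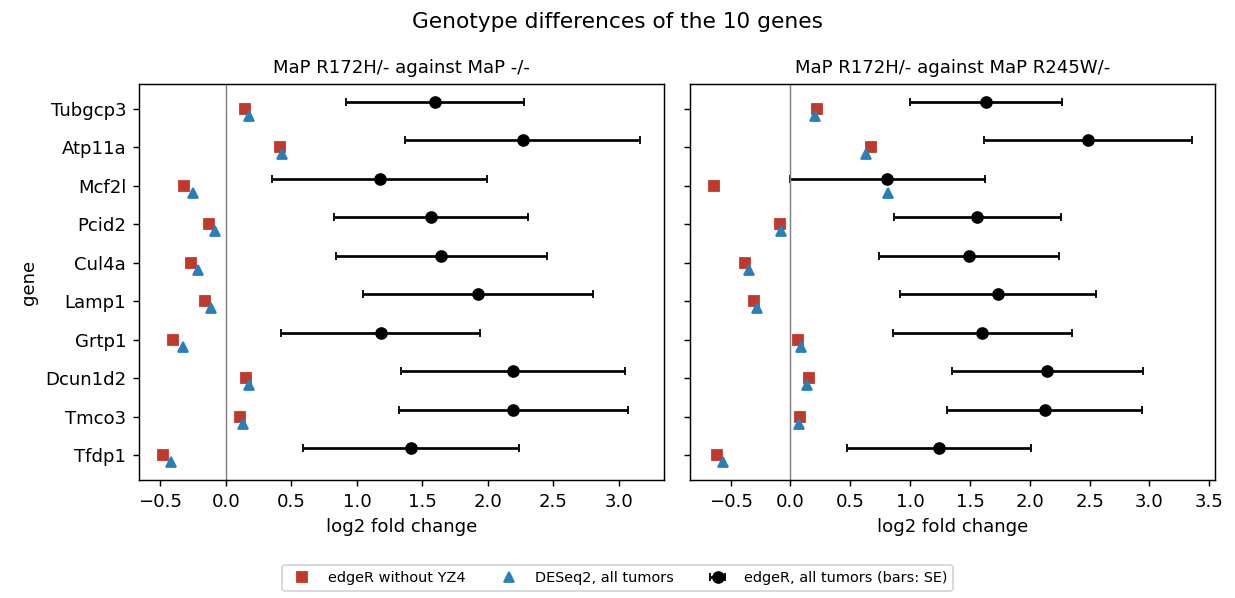
Log2 fold changes of the 10 genes for MaP R172H/- against MaP -/- (left) and against MaP R245W/- tumors (right), with edgeR on all tumors (black, bars are SE), edgeR without YZ4 (red) and DESeq2 on all tumors (blue). On the left, the black points lie between 1.17 and 2.27 and the red ones between -0.48 and 0.41, close to the blue ones, while on the right the blue point of Mcf2l lies beside the black one.

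Between MaP R245W/- and MaP -/- tumors, which were sequenced on the same instrument, the 10 genes had log2 fold changes between -0.46 (Grtp1) and 0.31 (Mcf2l), with a median of 0.02, the same as the 0.02 over all 21452 genes tested. None was called, as was no gene of the table (0%), and none had an unadjusted p under 0.05, which 11.8% of all genes had. DESeq2 also called none of the 10, and 1.75% of 24332 genes (427), and without replacement again none, and 2.22% of 26717 genes. Cul4a was at 0.12 ± 0.17 (SE, FDR = 0.808 by edgeR), Lamp1 at 0.16 ± 0.25 (FDR = 0.823) and Tfdp1 at 0.14 ± 0.27 (FDR = 0.855). The groups overlapped for each of the 10 genes, in this comparison and in both others. The share of all genes with overlapping groups is not given here, so nothing about the block is read from this.

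Between MaP R172H/- and MaP R245W/- tumors, none of the 10 genes was called by edgeR either, where 9.4% of 22481 genes were, 2.91% as higher in MaP R172H/- tumors. With an unadjusted p under 0.05, 7 passed, against 25.9% of all genes, and DESeq2 called 0, with 12.2% of 30154 genes called. The log2 fold changes ran from 0.81 (Mcf2l) to 2.49 (Atp11a, FDR = 0.0799 by edgeR) with a median of 1.62, and without YZ4 from -0.64 (Mcf2l) to 0.67 (Atp11a) with a median of -0.01. When YZ7, the tumor lowest in Atp11a, was left out, edgeR called 1 of the 10 genes, Atp11a, and 10.6% of 22313 genes. Without replacement of outlying counts, which it had otherwise replaced for 9 of the 10, DESeq2 called Atp11a, Dcun1d2 and Tmco3, and 13% of 30739 genes. The 3 comparisons share tumors, so their values are not independent of each other.

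The partners of the 10 genes were not high in YZ4 with them. The 20 other genes of the CRL4 list had a median ratio of 0.819 in YZ4, the seventeenth of 18 tumors, and none reached 2. Ddb1, the adaptor of Cul4a, was at 0.832, the paralog Cul4b at 66.9 CPM against a median of 80.7, and the RING subunit Rbx1 at 0.629, the lowest of the 18 tumors. Nedd8 had 84.6 CPM against a median of 56.3, the highest of the 18. The 10 genes of neddylation had a median of 0.850, with the paralog Dcun1d1 of Dcun1d2 at 0.835 and Nae1, a subunit of the enzyme that activates NEDD8, at 0.487, the lowest of the 18.

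Most of the E2F, DP and RB family also stayed near or below its usual level. Its 12 other members had a median of 0.791 in YZ4, and 7 of them were below 1. Tfdp2, the paralog of Tfdp1, was at 1.06, E2f1 at 0.791 and E2f3 at 0.694, the lowest of the 18. The highest ratios were those of E2f8 (1.48) and E2f7 (1.21). The 24 E2F target genes of the S phase had a median of 0.683 in YZ4, again the seventeenth of 18, and 20 of them were below 1. Cdt1, whose protein licenses replication origins and is a substrate of CRL4, was at 0.460, the lowest of the 18, Pcna at 0.594 and Mcm5 at 0.487. These are RNA levels, which do not show degradation of the protein.

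Most other lists were also near 1. The 26 lysosome genes had a median of 0.999, the eighth of 18, with Lamp2, the paralog of Lamp1, at 0.994, the proteases Ctsb at 1.21 and Ctsd at 1.13, and 18.5 CPM for the regulator Tfeb against a median of 14.2. The one lysosome gene above 2 was the calcium channel gene Mcoln1, at 4.96, which was at 44.5 in the tumor where it was highest. The gamma-tubulin ring complex had a median of 0.871 over 11 genes (Tubgcp2 at 0.693, the lowest of the 18), the flippases 1.02 over 12 (Atp11b at 0.780, the lowest of the 18), TREX-2 0.912 over 5 and the 4 genes of the GAS6 receptor list 1.35 (Axl at 1.64, while the ligand gene Pros1 on the same list was at 0.249, the lowest of the 18). Over all genes the median in YZ4 was 0.979.

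**Figure D5:**
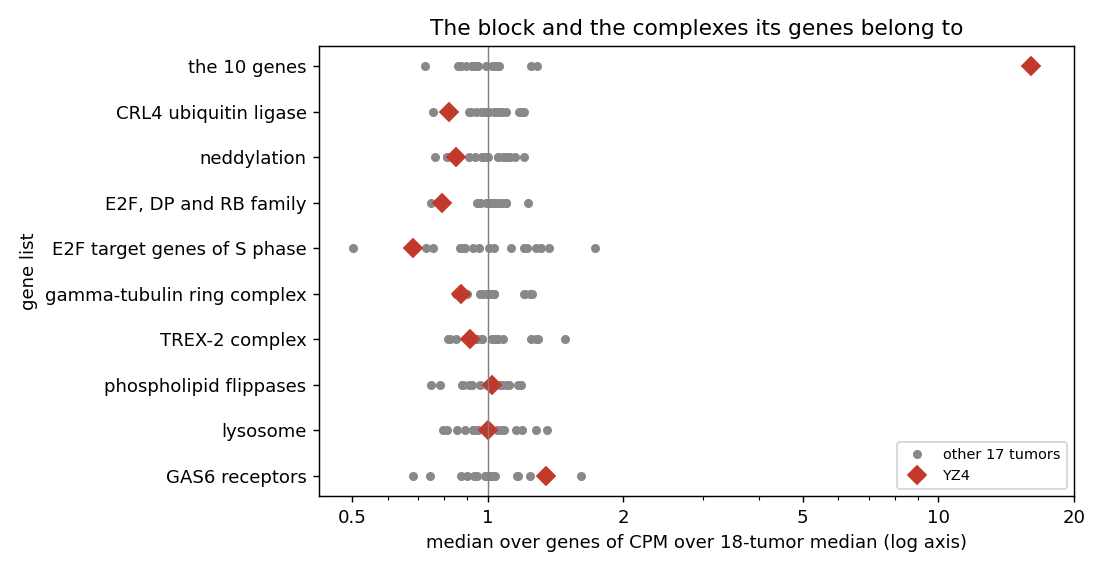
Each point is the median over a list of the genes' levels divided by their 18-tumor medians (log axis), for the 10 genes and 9 lists, which leave the 10 genes out, with YZ4 as red diamonds and the other 17 tumors in grey. The GAS6 receptor list belongs to the neighbor Gas6, and the other lists hold partners of the 10 genes. The 10 genes stand at 16.1 in YZ4, and the lists lie between 0.683 and 1.35 in it.

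Between genotypes, some list genes were called, in comparisons that called 8.4% of all genes against MaP -/- tumors and 9.4% against MaP R245W/- tumors. Against MaP -/- tumors, 1 of 20 CRL4 genes was higher in MaP R172H/- tumors by edgeR (Cops7a, a subunit of the COP9 signalosome, log2 fold change 0.86 ± 0.20, FDR = 0.0194) and 1 of 12 in the E2F family (E2f2, 0.61 ± 0.17, FDR = 0.0461). Of the S phase targets, 1 of 24 was lower (Pcna, -0.86 ± 0.25, FDR = 0.0459), and 2 of 26 lysosome genes were higher (Tfeb, 0.82 ± 0.19, FDR = 0.0184, and Gaa, 0.72 ± 0.19, FDR = 0.0347). One gene each was lower in TREX-2 (Eny2, -0.82 ± 0.17) and neddylation (Dcun1d5, -2.87 ± 0.83), and none was called in the gamma-tubulin or GAS6 receptor lists. Each of the 13 tumors was then left out in turn, a check added after seeing the data. Cops7a, Tfeb and Eny2 kept their call in 13 of 13 fits. Gaa kept it in 7, being lost without YZ2, YZ4, YZ11, JM663-T1, JM663-T2 or JM833-T2. E2f2 kept it in 1 (without JM663-T2) and Pcna in 2 (without YZ11 or JM833-T1). Dcun1d5 kept it in 5 and lost it without JM663-T2 and without each of the MaP R172H/- tumors. JM663-T2 had 1727 CPM of Dcun1d5, and its removal left a log2 fold change of -0.56 (FDR = 0.0646 by edgeR). The list medians lay between -0.42 (GAS6 receptors) and 0.17 (E2F family), against 0.00 over all genes. In the same comparison 3 of 7 macrophage genes (Adgre1, Itgam and Mrc1), 3 of 8 fibroblast genes (Fap, Lum and Pdgfra) and 1 of 6 endothelial genes (Pecam1) were lower in MaP R172H/- tumors, with list medians of -0.53, -0.95 and -0.24, and the epithelial list had a median of 1.24 with none of 10 genes called. The part of these cell types in the values of the lists was not tested. Whether the list genes keep their calls with tumors of 1 mouse summed was not tested either.

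Against MaP R245W/- tumors, edgeR called 1 CRL4 gene higher (Ddb2) and 3 lower in MaP R172H/- tumors (Cops5, Ddb1 and Cops2), with Ddb1 at -0.71 ± 0.17 (FDR = 0.0141). It called 2 S phase targets lower (Pcna at -1.09 ± 0.24 and Gins2 at -0.75 ± 0.22), and 3 lysosome genes lower (Npc2, Atp6v1h and Ctsl) with 1 higher (Mcoln1, 3.17 ± 0.96). Also lower were Mzt1 of the gamma-tubulin list, Tmem30a of the flippases, Eny2 of TREX-2 and Nae1 of neddylation. With each of the 18 tumors left out in turn, Cops5, Cops2, Pcna, Npc2, Mzt1 and Eny2 kept their call in 18 of 18 fits, and Ddb1 in 17, being lost without RM0014. Ddb2, Gins2, Atp6v1h, Ctsl, Mcoln1, Tmem30a and Nae1 kept it in 5 to 13 of 18 fits, and each lost it without YZ4 and without several others. Mcoln1, which lies in the first 5 Mb of chromosome 8, rested on YZ7, with 1780 CPM there and a log2 fold change of 0.98 without it (FDR = 0.108 by edgeR). Ctsl was at -1.02 without JM1126 (FDR = 0.231 by edgeR), against -2.09 with it. In the same comparison 2 of 7 macrophage genes (Adgre1 and Itgam, both lost without JM1233), 1 of 8 fibroblast genes (Lum, lost without JM1126) and 7 of 7 skeletal muscle genes tested were lower in MaP R172H/- tumors, and their part was not tested. In the comparison of MaP R245W/- with MaP -/- tumors edgeR called none of these list genes. It called none of all 21452 genes tested there (0%), so nothing is read from this about the lists.

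Markers of cell types were read beside the block, because in bulk tumor RNA fewer cells of a type and less RNA per cell cannot be told apart. YZ4 expressed the epithelial genes Epcam (517 CPM) and Krt8 (617 CPM), and its summed epithelial level of 4804 CPM was inside the range of its group, 388 to 8511 CPM. The basal keratins were high, with Krt5 at 439 CPM (186.6 times its median of 2.35 CPM), Krt17 at 633 CPM and Krt14 at 7.23 times its median, each the highest of 18. Krt19 of the same list was also the highest of 18, at 764 CPM and 5.97 times its median. The other 6 genes of the epithelial list were below their medians. The summed levels of fibroblast genes (4372 CPM), endothelial genes (271 CPM), macrophage genes (955 CPM) and muscle genes (9.03 CPM) were within the ranges of the other tumors. Markers of adipocytes and T cells were high in YZ4 together with the block. The adipocyte list had a median ratio of 23.6, the second of 18. It was taken over the 2 genes with a median of at least 1 CPM, Cidec (42.3) and Fabp4 (4.94). Of the genes with a lower median, the adipokine gene Adipoq had 32.8 CPM in YZ4 and the lipid droplet gene Plin1 34.1 CPM. The T cell list had a median ratio of 2.29 over 4 genes, also the second. Their summed levels in YZ4 were 244.98 CPM for adipocyte genes, with 3280 CPM in JM833-T1, and 24.7 CPM for T cell genes, with 91.9 CPM in JM833-T2. In those tumors with the highest sums the median ratio of the 10 genes was 0.873 and 0.895. The part of the keratins, the adipocyte genes and the T cell genes in the result was not tested.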

How the data were processed

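Total RNA of 18 mammary tumors was depleted of ribosomal RNA and sequenced with a stranded kit. The authors checked reads with FastQC 0.11.9, used STAR 2.7.10b for alignment to GRCm39 and RSEM 1.3.3 with the GENCODE M34 annotation for counting, and deposited whole-number counts without normalization. Of 57126 genes, 56620 matched GENCODE M39 by identifier, which gave coordinates and exon lengths. The other 506 held at most 0.0464% of a tumor's counts.

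CPM values use TMM library sizes. Genotypes were compared with the quasi-likelihood test of edgeR 4.0.16 (R 4.3.3) after TMM and filterByExpr, with a fit per comparison with MaP -/- tumors and 1 fit of 18 tumors for the mutants. Benjamini-Hochberg FDR was taken over all genes tested. The SE of an edgeR log2 fold change was derived from the test, as its absolute value divided by the square root of the F statistic. Replicates are separate tumors, and p-values measure the spread between them. The 6 MaP -/- tumors came from 4 mice, so tumors of 1 mouse counted as separate replicates although they may not be independent. Between MaP R172H/- and MaP -/- tumors the main edgeR fit called 1760 of 20954 genes. With tumors of 1 mouse summed, the edgeR fit called 1126 of 21772 genes. Both fits called 0 of the 10 genes of the block. DESeq2 1.42.0, other size factors, no filter, a fold change minimum of 1, tumors of 1 mouse summed, other fits and each tumor left out were alternatives (for list genes, leaving out each tumor was added after seeing the data), and the test was tested on simulated data. Python 3.11.15 was used for the rest.

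Named are the 10 genes, the other protein-coding genes of the window, the 10 nearest genes per side (summarised), the 10 most alike genes, up to 4 called genes per list, Insr and Arhgef18. Further genes of the lists were named for their roles or after their values were seen. The 10 genes and the lists were chosen with earlier results of these data known. Promoter sequences are from RefSeq (GRCm38.p6), placed in GRCm39 by exact match, and the printed runs are from GRCm39. A result of the flippase list in the genotype comparisons is not reported here.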

Additional observations from a re-analysis of the deposited data

Results flagged for a closer look

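In 30 sets of values, each of 1 of the 10 genes in 1 group, the highest and lowest tumor were compared with the rest by Dixon's test, which singles out about 1 in 20 groups by chance. YZ4 was left out of its group, because its values chose the genes. The test singled out 2 values. Mcf2l had 100.4 CPM in YZ6, the highest of the other MaP R172H/- tumors, with a gap of 0.853 of the range, and at 2.64 times the 18-tumor median. Cul4a had 227 CPM in JM1564, the highest of the MaP R245W/- tumors, with a gap of 0.847 of the range, and at 1.42 times the 18-tumor median.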

How the results depend on the processing

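Of 276 recomputed values of 14 results, 257 kept their direction and their side of the threshold or stayed within the spread between tumors. The median ratio of the 10 genes in YZ4 was 16.1, and between 15.7 and 17.8 with plain library sizes, other size factors or other reference tumors. When tumors were left out 1 at a time, the highest tumor's median ratio lay between 1.32, when YZ4 itself was left out, and 16.3. In the comparison of MaP R172H/- with MaP -/- tumors edgeR called 0 of the 10 genes, and 8.4% of all genes. DESeq2 without replacement of outlying counts (chosen after seeing the data) called 3 there, and 11.9% of all genes. Against MaP R245W/- tumors it also called 3, and 13% of all genes. When tumors were left out 1 at a time, the number called by edgeR against MaP R245W/- tumors, 0 on all tumors, ran from 0 to 1. It was 1 without YZ7, where 10.6% of all genes were called, against 9.4% on all tumors.

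Differences from MaP -/- tumors turned for 6 genes. With DESeq2 they became -0.25 for Mcf2l, -0.084 for Pcid2, -0.21 for Cul4a, -0.11 for Lamp1, -0.33 for Grtp1 and -0.42 for Tfdp1. With each tumor left out they ran from -0.32 to 1.53 for Mcf2l, from -0.13 to 1.72 for Pcid2, from -0.27 to 1.83 for Cul4a, from -0.16 to 2.12 for Lamp1, from -0.40 to 1.35 for Grtp1 and from -0.48 to 1.65 for Tfdp1, the lowest in each case without YZ4. The other 4 kept their sign but not their size. They went from 1.60 to 0.15 without YZ4 and 0.17 by DESeq2 for Tubgcp3, from 2.27 to 0.41 and 0.43 for Atp11a, from 2.19 to 0.15 and 0.18 for Dcun1d2 and from 2.19 to 0.11 and 0.13 for Tmco3. DESeq2's replacement of counts and the absence of YZ4 are the construction of these alternatives.

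No paired analysis was possible because the labels give no replicate numbers that join tumors of different groups. With 1 tumor carrying the pattern, no replicate shows how often it occurs. Depth does not limit the 10 genes, whose lowest count in a tumor was 109. It limits F7, F10 and the low genes of the window.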
